A study of Danio rerio with 4 samples.

Results

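The genes described here set the eyes of doubly heterozygous eys+/-; lrp5+/- zebrafish (Danio rerio) apart from the average of both homozygous mutants. The rule took the log2 array signal of eys+/-; lrp5+/- eyes, subtracted the mean signal of eys-/- and lrp5-/- eyes, and kept genes at an absolute difference of 1 or more, which is 2-fold. It found 94 genes of 10609 measured ones, 64 higher and 30 lower in the double heterozygote. A gene was measured when the highest of these 3 arrays reached 6.57, the median of all named values, so a gene needed only 1 reading at that level.

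The study compared whole eyes of fish of mixed sex at 3.5 months after fertilisation. The arrays used were 1 of fish with 1 mutant allele each of eys and lrp5, 1 of eys-/- homozygotes, 1 of lrp5-/- homozygotes and 1 of Wildtype fish. The labels do not name the mutant alleles, the number of fish pooled on an array or the hour of collection, and all fish were kept on the same light and dark cycle. With 1 array per genotype there is no spread between samples and no test. Every difference below compares single arrays, and the number of arrays limits the precision.

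As background, eys codes for a large secreted protein that lies next to photoreceptors, and its loss leads to photoreceptor degeneration in human retinitis pigmentosa. The product of lrp5 is a cell surface co-receptor of Wnt ligands and of Norrin, which is needed for retinal vessels. Photoreceptors and other eye cells of fish hold their own circadian clocks, in which Clock and Bmal proteins switch on genes of repressors such as Per, Cry and Rev-erb, whose products in turn restrain Clock and Bmal or the bmal genes.

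The array annotation used here gives no probe set to eys. The level of lrp5 was 6.92 in the double heterozygote, 7.27 in eys-/-, 7.17 in lrp5-/- and 7.39 in Wildtype eyes, a difference of -0.30 from the mean of the homozygotes. Its lowest reading was in the double heterozygote and not in lrp5-/-, and the labels do not place the mutation, so this checks no label. The arrays had medians of 5.03 to 5.06. Eye markers read high on all of them: the rod transducin gnat1 lay between 12.43 and 12.56, the lens channel mipa between 12.13 and 12.43 and the pigment epithelium isomerase rpe65a between 11.31 and 12.003. Over all measured genes the median difference between the double heterozygote and the homozygotes was 0.01 and its robust SD 0.17.

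The 64 higher genes were 0.603% and the 30 lower genes 0.283% of measured genes. These shares follow from the rule and are the background against which the gene groups below are read. The median log2 difference was 1.29 over the higher and -1.22 over the lower members, and 12 of the 94 reached an absolute difference of 2. The double heterozygote was outside the range of all 3 other arrays for 92 members. Among all measured genes it was outside that range, by any amount, for 53.9%. The exceptions were LOC100006764, which read 2.90 in the double heterozygote, 2.57 in eys-/-, 7.60 in lrp5-/- and 6.18 in Wildtype, and LOC793232, which read 4.72, against 6.61 in eys-/-, 5.15 in lrp5-/- and 4.18 in Wildtype. Both are lower members, named after their values were seen.

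The wording "beyond both homozygotes" holds at 2-fold for a minority of the members. Only 28 of the 94 genes (18 higher, 10 lower) lay 2-fold or more beyond the nearer homozygote, and 19 lay 2-fold or more beyond all 3 other arrays. These same genes make up the 0.264% and 0.179% of measured genes so placed, because any gene that far out is a member. For the other 66 genes 1 of the homozygotes came within 2-fold of the double heterozygote. In many of these the homozygotes were apart. In some, such as pde6ga at 1.01, they were close and the difference was just past the threshold. The distance came mainly from the eys-/- array: 60 of the 64 higher genes were 2-fold or more above eys-/- and 22 were so above lrp5-/-, while 1.46% and 0.32% of measured genes were. On the lower side 25 of 30 genes were 2-fold or more below eys-/- and 15 below lrp5-/-, against 0.688% and 0.292% of measured genes. The rule selects on these same arrays and the measured genes include the members. Higher shares among members thus follow from the rule, and the counts are a description. With the lrp5-/- array as the only comparison, 37 of the 94 genes kept their call, and with the eys-/- array alone 85 did.

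**Figure D1:**
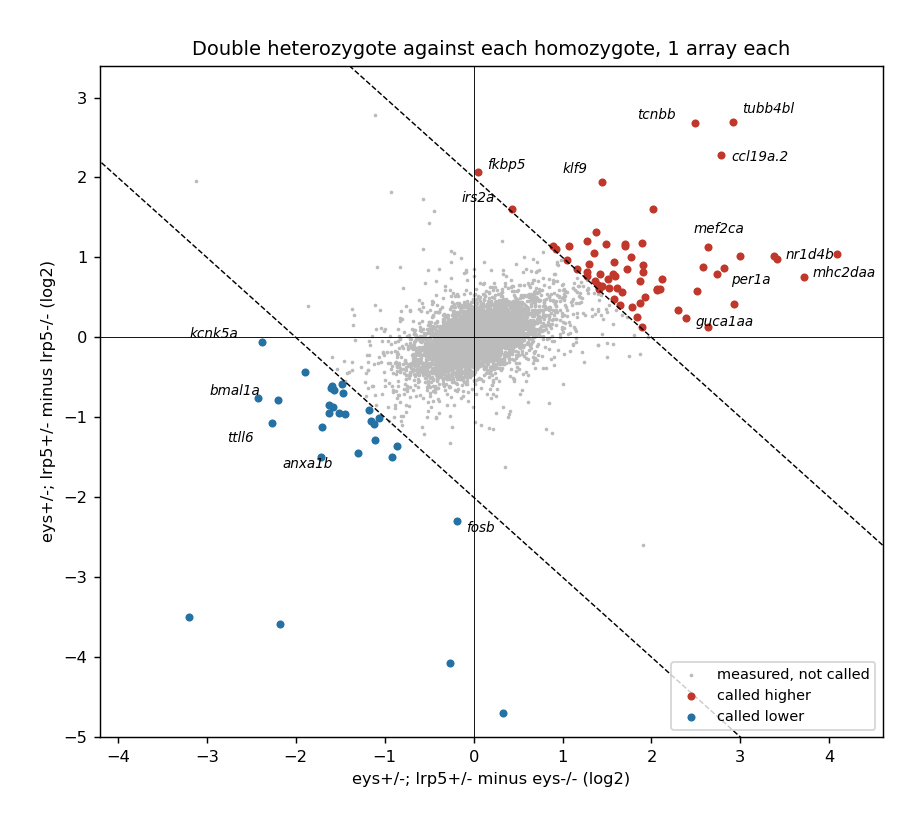
Each point is a measured gene, with the log2 difference of the eys+/-; lrp5+/- array from the eys-/- array on the horizontal axis and from the lrp5-/- array on the vertical axis. Dashed lines mark a difference of 1 from the mean of both homozygotes. Most red points (64 called higher) lie farther right than up, fkbp5 lies almost on the vertical axis at 0.05, and kcnk5a almost on the horizontal axis at -0.06.

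The arrays therefore stood in a common order for most members. The lrp5-/- reading lay between those of the double heterozygote and eys-/- for 78 of the 94 genes (83.0%), an order found for 41.6% of measured genes. The eys-/- reading was the middle one for 15 members (16.0%), against 24.6% of measured genes. These arrays all enter the rule, so the shares are a description. Among the higher members lrp5-/- read above eys-/- for 57 of 64, with a median difference of 0.84, and among the lower members it read below eys-/- for 21 of 30, with a median of -0.53. The 7 higher genes with the other order were tcnbb, klf9, fkbp5, irs2a, wfikkn2a, nim1kb and a gene with a clone-style name, zgc:153383. The homozygotes differed by 2-fold or more for 39 members, as they did for 1.44% of measured genes, and by less than 0.5 for 24.

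Wildtype eyes did not enter the difference of the rule. Their values did enter the level of 6.57, the choice of the brightest probe set of a gene and the note on the range of the other arrays. The Wildtype reading was nearer to the mean of the homozygotes than to the double heterozygote for 80 of the 94 genes. It was nearer to the double heterozygote for the other 14, and for 37.2% of all measured genes. The rule chose genes whose double heterozygote reading is far from the mean of the homozygotes, so the count of 80 is a description. Wildtype lay between the homozygotes for 48 members (51.1%), against 38.2% of measured genes. The other 14 genes had Wildtype on the side of the double heterozygote: 4 higher ones (tubb4bl, tcnbb, ftr76 and 1 with a clone-style name) and 10 lower ones, among them klf2a, fosb, anxa1b, krt1-19d, socs3a, s100w and ostn. At 2-fold, 52 of the 64 higher genes were also above Wildtype and 15 of the 30 lower genes also below it, where 1.21% and 0.49% of measured genes were. The rule favours such genes and the measured genes include them, so these counts too are a description. A total of 15 higher and 4 lower genes were 2-fold or more from each of the 3 other arrays. The 15 higher ones were tubb4bl, ccl19a.2, zgc:103700, smu1b, mef2ca, myo19, klf9, rtn2b, nav2b, hpxb, arhgap36, insl3, pla2g15, gls2b and kera, and the 4 lower ones ndrg1b, ttll6 and 2 with clone-style names. The gene arhgap36 sits on that limit, at 1.001 above the nearest array.

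**Figure D2:**
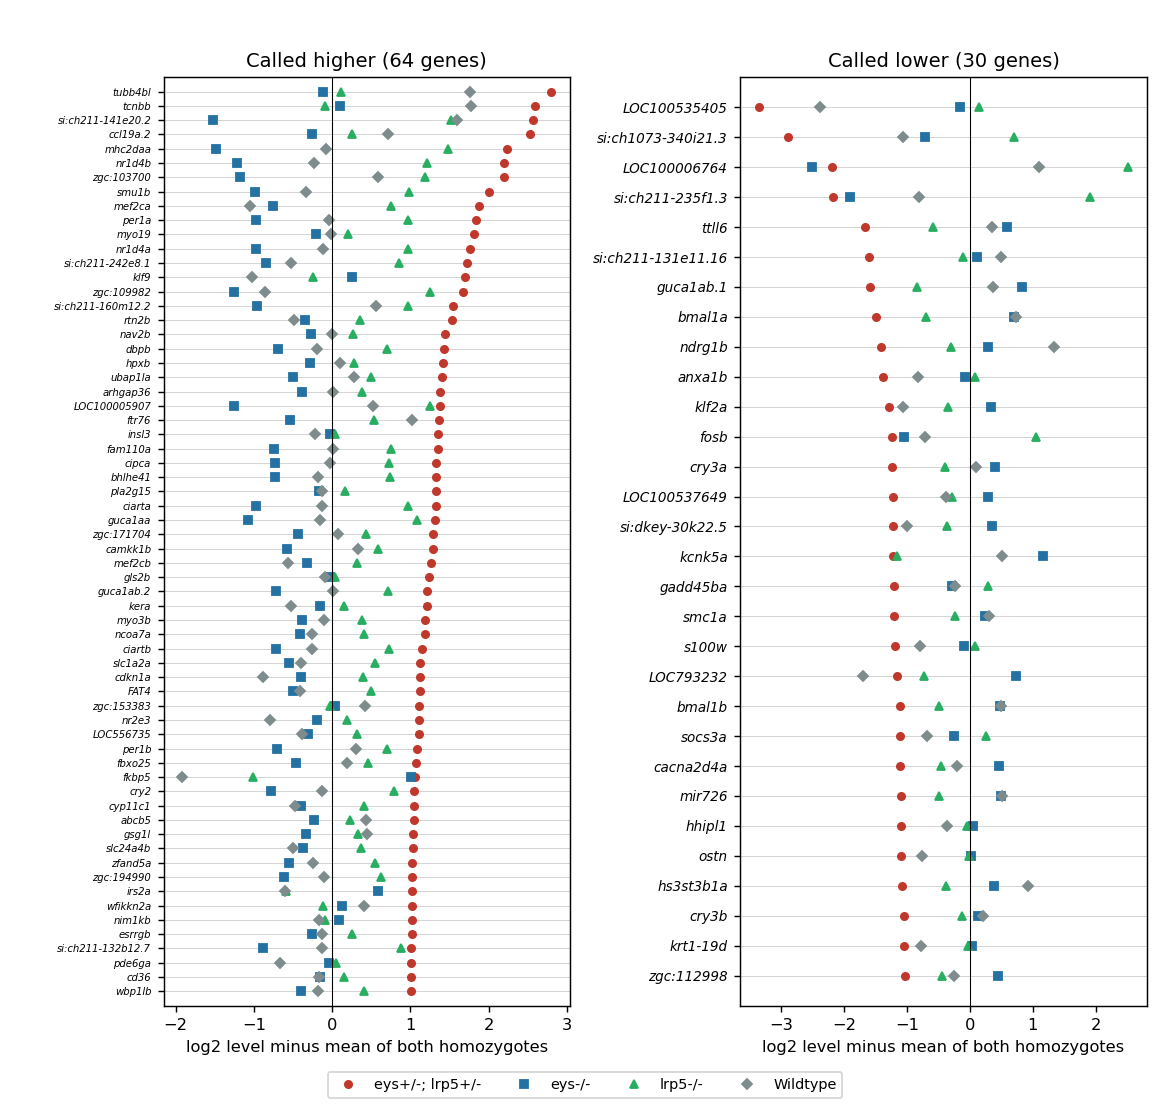
All 64 higher genes (left) and 30 lower genes (right), with each array's log2 level minus the mean of both homozygotes on the horizontal axis and 1 gene per row, sorted by the difference. Green triangles (lrp5-/-) lie between the red circles (eys+/-; lrp5+/-) and blue squares (eys-/-) in 78 of 94 rows, and grey diamonds (Wildtype) are nearer to the zero line than to the red circle in 80 rows. Wildtype was nearer to the double heterozygote in the other 14 rows, and for 37.2% of all measured genes.

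Circadian clock genes gave more members than any other of the 36 gene lists. Of 45 measured clock genes 9 were higher and 4 lower, 28.9% against 0.886% of measured genes called in either direction. The 36 lists were chosen with earlier results of these data known. This share and those of the lists below are therefore a description. The median difference of the 45 was 0.03, beside 0.01 for all measured genes, with called genes on both sides. Against eys-/- alone the clock median was 0.26 and against lrp5-/- alone -0.11. For all 13 called clock genes the lrp5-/- reading lay between eys-/- and the double heterozygote. Over the whole list lrp5-/- was the middle array for 27 of 45 genes. The Wildtype reading lay between the homozygotes for all 9 higher genes but for only 1 of the 4 lower ones. It did so for 25 of the 45 clock genes and for 38.2% of measured genes. Clock genes cycle over the day and the hour at which each array's eyes were taken is not labelled, so a difference of genotype and one of clock phase between samples cannot be told apart.

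Rev-erb nuclear receptors and related factors repress the transcription of bmal genes and of clock outputs. The gene nr1d4b, a Rev-erb member, read 8.82 in the double heterozygote, 5.42 in eys-/-, 7.85 in lrp5-/- and 6.40 in Wildtype, a difference of 2.19 from the mean of the homozygotes. Its relative nr1d4a read 9.01, against 6.28 in eys-/-, 8.22 in lrp5-/- and 7.13 in Wildtype (1.77). Both were highest in the double heterozygote and lowest in eys-/-, with a span over the arrays wider than that of the other Rev-erb genes. The repressor bhlhe41, of the Dec family, read 10.93, against 8.86, 10.33 and 9.42 in eys-/-, lrp5-/- and Wildtype (1.33). Of 11 measured genes in this role 3 were higher and 0 lower, where 0.603% and 0.283% of all measured genes were. The classical Rev-erb gene nr1d1 differed by 0.63, nr1d2a by 0.25, nr1d2b by 0.00, bhlhe40 by 0.22 and nfil3 by -0.71, so the family did not move as 1 block.

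Per and Cry proteins form the complex that inhibits Clock and Bmal. The gene per1a read 10.63 in the double heterozygote, 7.82 in eys-/-, 9.77 in lrp5-/- and 8.75 in Wildtype (1.84), and per1b read 10.58, 8.80, 10.20 and 9.81 in the same order (1.08). The double heterozygote was highest for both and eys-/- lowest. The other period genes were close to the mean of the homozygotes, with per2 at 0.05 and per3 at 0.03. Chrono, another inhibitor of Clock and Bmal, has 2 gene copies in zebrafish, and both were members. For ciarta the arrays read 10.24 in the double heterozygote, 7.94 in eys-/-, 9.90 in lrp5-/- and 8.79 in Wildtype (1.32), and ciartb read 10.29, 8.43, 9.87 and 8.89 (1.15). The lrp5-/- reading of ciarta was only 0.35 below the double heterozygote.

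Cryptochromes went in both directions. The gene cry2 read 11.32 in the double heterozygote, 9.49 in eys-/-, 11.06 in lrp5-/- and 10.15 in Wildtype (1.05). In contrast cry3a read 9.50 in the double heterozygote, 11.13 in eys-/-, 10.35 in lrp5-/- and 10.83 in Wildtype (-1.24), and cry3b read 7.77, 8.94, 8.67 and 9.01 (-1.04). Thus cry3a and cry3b were lowest where cry2 was highest. The RefSeq gene table lists older cryptochrome symbols for these genes as synonyms, so names in other sources may differ. The uncalled cryptochromes cry1b, cry5, cry1a and cry4 differed by 0.73, 0.21, -0.01 and -0.56. In all, 5 of 14 period, cryptochrome and Chrono genes were higher and 2 lower, where 0.603% and 0.283% of all measured genes were.

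The PAR bZIP factors, outputs of the clock that drive genes through D-box elements, included 1 member. For dbpb the levels were 11.86 in the double heterozygote, 9.74 in eys-/-, 11.13 in lrp5-/- and 10.25 in Wildtype (1.43). Of the other 5 measured factors of this role 0 were called, and tefb at 0.97 and dbpa at 0.86 came nearest. The median of all 6 was 0.54, and 0.603% of all measured genes were higher.

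Clock activators were on the lower side. The gene bmal1a read 4.83 in the double heterozygote, 7.02 in eys-/-, 5.61 in lrp5-/- and 7.06 in Wildtype (-1.49), and bmal1b read 6.66, 8.27, 7.30 and 8.27 (-1.12). For both, eys-/- and Wildtype were nearly equal and lrp5-/- lay between them and the double heterozygote. The double heterozygote reading of bmal1a is below the median of its array, so the size of its difference is uncertain. Of 9 measured activators 2 were lower and 0 higher, where 0.283% and 0.603% of all measured genes were, and the median was -0.60. Among those not called, npas2, a Clock relative, differed by -0.91, the Ror receptor gene rorcb by -0.84, clocka by -0.60 and clockb by -0.30, while rorb differed by 0.01. Kinases and ubiquitin ligases that act on clock proteins included 0 called genes of 5, with csnk1db at 0.50 and fbxl3a at -0.51 as the extremes. The share called over all measured genes was 0.886%.

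Outside the list, cipca, named after its values were seen, is a copy of the gene of a mammalian Clock-interacting repressor. It read 9.55 in the double heterozygote, 7.48 in eys-/-, 8.94 in lrp5-/- and 8.18 in Wildtype (1.33), the same order as the period genes. Without the 13 clock genes 81 members remain, 55 higher and 26 lower, and lrp5-/- is the middle array for 65 of them (80.2%). Most members outside the clock list thus also showed this order of arrays.

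**Figure D3:**
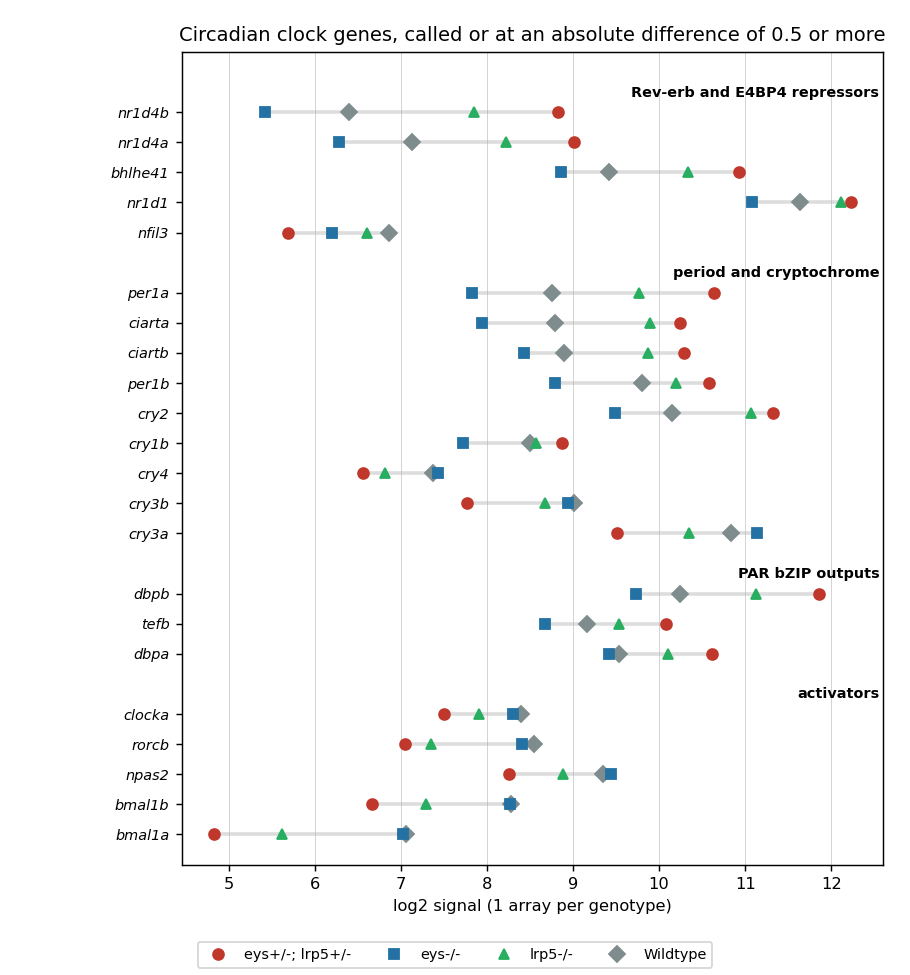
Log2 signals of clock genes that were called or differed by 0.5 or more, grouped by role, 1 row per gene and 1 marker per array. In the rows of nr1d4a, nr1d4b, per1a and dbpb the red circle (eys+/-; lrp5+/-) is at the right end and the blue square (eys-/-) at the left, and in the rows of the activators the red circle is at the left end.

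Glucocorticoid signalling works through the receptor nr3c1, which binds cortisol and switches on target genes in many tissues. Of 26 measured genes on this list 6 were higher and 0 lower, 23.1% against 0.886% of measured genes. The median difference was 0.27 over the list, 0.56 over its 19 targets and -0.38 over its 7 receptor and chaperone genes. Among the members klf9, a Krüppel-like factor and glucocorticoid target, read 9.20 in the double heterozygote, 7.75 in eys-/-, 7.25 in lrp5-/- and 6.47 in Wildtype (1.70). It was one of the members 2-fold above each other array, and its lowest reading was in Wildtype. The co-chaperone fkbp5, which restrains the receptor and is induced by it, read 9.97, against 9.92 in eys-/-, 7.90 in lrp5-/- and 6.996 in Wildtype (1.06). Its double heterozygote reading was only 0.05 above eys-/-, so its place among the members rests on the lrp5-/- array.

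The insulin receptor substrate irs2a behaved like fkbp5, at 9.94 in the double heterozygote, 9.51 in eys-/-, 8.33 in lrp5-/- and 8.32 in Wildtype (1.02). The cell cycle inhibitor cdkn1a read 6.99, against 5.48 in eys-/-, 6.27 in lrp5-/- and 4.99 in Wildtype (1.12). Its levels are low on the scale of these arrays. The remaining called genes of the list are per1a and per1b, which also belong to the clock list. Without clock genes 3 of 17 measured targets were higher, where 0.603% of all measured genes were. Just under the threshold were the mammalian glucocorticoid targets zbtb16a at 0.99 and zbtb16b at 0.93. Some other targets did not differ so, with sgk1 at 0.21, tsc22d3 at -0.01, ddit4 at -0.13 and dusp1 at -0.52. The receptor gene nr3c1 itself differed by -0.15, and the chaperone hsp90aa1.1 by -0.63. A gene outside the list, chosen after its values were seen, is cyp11c1 of cortisol synthesis, which read 7.39 in the double heterozygote, 5.95 in eys-/-, 6.75 in lrp5-/- and 5.87 in Wildtype (1.05).

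The transcription factors of the Mef2 family, regulators of muscle and neuronal genes, included both copies of mef2c. The gene mef2ca read 9.71 in the double heterozygote, 7.07 in eys-/-, 8.58 in lrp5-/- and 6.77 in Wildtype (1.88). Its copy mef2cb read 10.25, against 8.67, 9.31 and 8.43 in eys-/-, lrp5-/- and Wildtype (1.26). Both were highest in the double heterozygote and lowest in Wildtype. The relatives mef2aa and mef2d differed by 0.28 and 0.11. Of 38 measured skeletal muscle genes these 2 were the only ones called, where 0.603% of all measured genes were higher. The muscle list had a median of 0.04, and its mean log2 level was 7.86 in the double heterozygote, 7.89 in eys-/-, 7.61 in lrp5-/- and 7.79 in Wildtype, so muscle genes as a list did not follow mef2ca.

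Immediate early genes respond within minutes to stimulation of a cell. Of 36 measured ones 1 was higher (klf9) and 4 were lower, 2.78% and 11.1% of the list against 0.603% and 0.283% of measured genes, and the median was 0.09. The flow-responsive Krüppel-like factor klf2a read 7.53 in the double heterozygote, 9.15 in eys-/-, 8.47 in lrp5-/- and 7.75 in Wildtype (-1.29). Here the homozygotes were high and Wildtype lay within 0.22 of the double heterozygote. The AP-1 gene fosb read 4.97, against 5.16 in eys-/-, 7.26 in lrp5-/- and 5.50 in Wildtype (-1.24), so that its call comes from a high lrp5-/- reading alone. Its reading in the double heterozygote was below the array median and the size is uncertain.

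The stress gene gadd45ba read 7.10 in the double heterozygote, 8.02 in eys-/-, 8.601 in lrp5-/- and 8.08 in Wildtype (-1.21). The cytokine signalling suppressor socs3a read 5.82, against 6.69, 7.18 and 6.25 in eys-/-, lrp5-/- and Wildtype (-1.11). Both were lowest in the double heterozygote and highest in lrp5-/-. Of the uncalled early genes gadd45ga at 0.83, dusp2 at 0.84, nr4a1 at 0.77 and npas4a at 0.71 were on the higher side and fosab at -0.64 on the lower. For gadd45ga and npas4a the double heterozygote and lrp5-/- were close, at 8.27 and 8.48 for gadd45ga and at 7.12 and 7.19 for npas4a, with eys-/- at 6.40 and 5.62.

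Photoreceptors turn light into a fall of cGMP through opsin, transducin and phosphodiesterase, and guanylate cyclases with their activating proteins restore it. Of 31 measured rod list genes 3 were higher and 0 lower (median -0.05), of 30 cone list genes 0 were higher and 1 lower (median 0.07), and of 22 genes of photoreceptor structure and ribbon synapse 0 were higher and 2 lower (median 0.04). Of all measured genes 0.603% were higher and 0.283% lower. The gene rcvrn2 is on both phototransduction lists. The mean log2 level of the rod list was 10.71 in the double heterozygote, 10.66 in eys-/-, 10.69 in lrp5-/- and 10.65 in Wildtype, and that of the cone list 10.20, 10.22, 10.15 and 10.19. The members therefore stood out of lists whose means were level. Within the cone list the 7 opsins averaged 9.95 in the double heterozygote, 10.55 in eys-/-, 9.92 in lrp5-/- and 10.46 in Wildtype. The 23 cone cascade genes averaged 10.28, 10.12, 10.22 and 10.11 in the same order, so the cone list was not level in its parts.

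Among the cascade genes guca1aa, a guanylate cyclase activator, read 11.24 in the double heterozygote, 8.84 in eys-/-, 11.001 in lrp5-/- and 9.77 in Wildtype (1.31). Its relative guca1ab.2, named after its values were seen, read 9.31, against 7.37, 8.81 and 8.10 in eys-/-, lrp5-/- and Wildtype (1.22). By contrast guca1ab.1 read 7.11 in the double heterozygote, 9.53 in eys-/-, 7.86 in lrp5-/- and 9.07 in Wildtype (-1.59). Close members of this family can share probe sequence, so their single values are uncertain, yet guca1ab.1 was lowest where guca1aa and guca1ab.2 were highest. The uncalled activator guca1g differed by 0.92.

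The gene pde6ga, an inhibitory subunit of rod phosphodiesterase, read 11.03 in the double heterozygote, 9.98 in eys-/-, 10.06 in lrp5-/- and 9.36 in Wildtype (1.01). Its copy pde6gb lay between 12.12 and 12.20 on all 4 arrays. The photoreceptor nuclear receptor nr2e3 read 9.59 in the double heterozygote, 8.30 in eys-/-, 8.67 in lrp5-/- and 7.69 in Wildtype (1.11). For both called genes the homozygotes were close to each other and Wildtype was lowest. Its partner in rod fate, nrl, differed by 0.09. Cone channel genes cnga3a at 0.83 and cngb3.1 at 0.76, and the green opsin genes opn1mw1 at -0.93 and opn1mw3 at -0.68, came next to guca1g among cone genes not called. The opsin genes have near-identical copies and are uncertain.

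On the structural side ttll6, of the tubulin ligase family that modifies ciliary microtubules, read 5.16 in the double heterozygote, 7.42 in eys-/-, 6.23 in lrp5-/- and 7.17 in Wildtype (-1.67). The calcium channel subunit cacna2d4a of the photoreceptor synapse read 7.10, against 8.67, 7.75 and 7.998 in eys-/-, lrp5-/- and Wildtype (-1.11), and its copy cacna2d4b differed by -0.63. The double heterozygote was lowest for both. For ttll6 its reading was close to the median of its array, 5.04, so the size of that difference is uncertain. The active zone gene pcloa differed by 0.86 and was not called. Other members with known roles in sensory or neural cells, chosen after their values were seen, were the class III myosin gene myo3b at 1.18, the glutamate transporter slc1a2a at 1.12, the sodium, calcium and potassium exchanger slc24a4b at 1.03 and the AMPA receptor partner gsg1l at 1.03. For slc1a2a the levels were 11.90 in the double heterozygote, 10.23 in eys-/-, 11.33 in lrp5-/- and 10.38 in Wildtype.

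Some lists of tissues around the retina also held members. Of 42 measured surface epithelium genes 0 were higher and 2 lower, where 0.603% and 0.283% of all measured genes were. Of the 42 genes 31 had a difference below 0. The list median was -0.105, beside 0.01 for all measured genes. The annexin anxa1b, a lipid-binding protein of epithelia, read 6.23 in the double heterozygote, 7.53 in eys-/-, 7.68 in lrp5-/- and 6.78 in Wildtype (-1.37). The keratin krt1-19d read 7.29, against 8.36, 8.31 and 7.55 in eys-/-, lrp5-/- and Wildtype (-1.04). For both genes the homozygotes were nearly equal and above Wildtype. The mean log2 level of the epithelium list was 8.57 in the double heterozygote, 8.82 in eys-/-, 8.73 in lrp5-/- and 8.53 in Wildtype. In RNA of whole eyes a different number of cells of a type and a different amount of RNA per cell cannot be told apart. The share of surface tissue in each sample was not measured.

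Of 43 matrix genes of cartilage, bone and fibrous tissue 1 was higher and 0 lower, where 0.603% and 0.283% of all measured genes were. The higher gene was kera, whose product keratocan is a proteoglycan of the corneal stroma. It read 11.74 in the double heterozygote, 10.39 in eys-/-, 10.69 in lrp5-/- and 10.01 in Wildtype (1.21). This was among the 2-fold differences from every other array. The matrix list median was 0.04 and serpinh1b, a collagen chaperone, was its lowest member at -0.60.

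**Figure D4:**
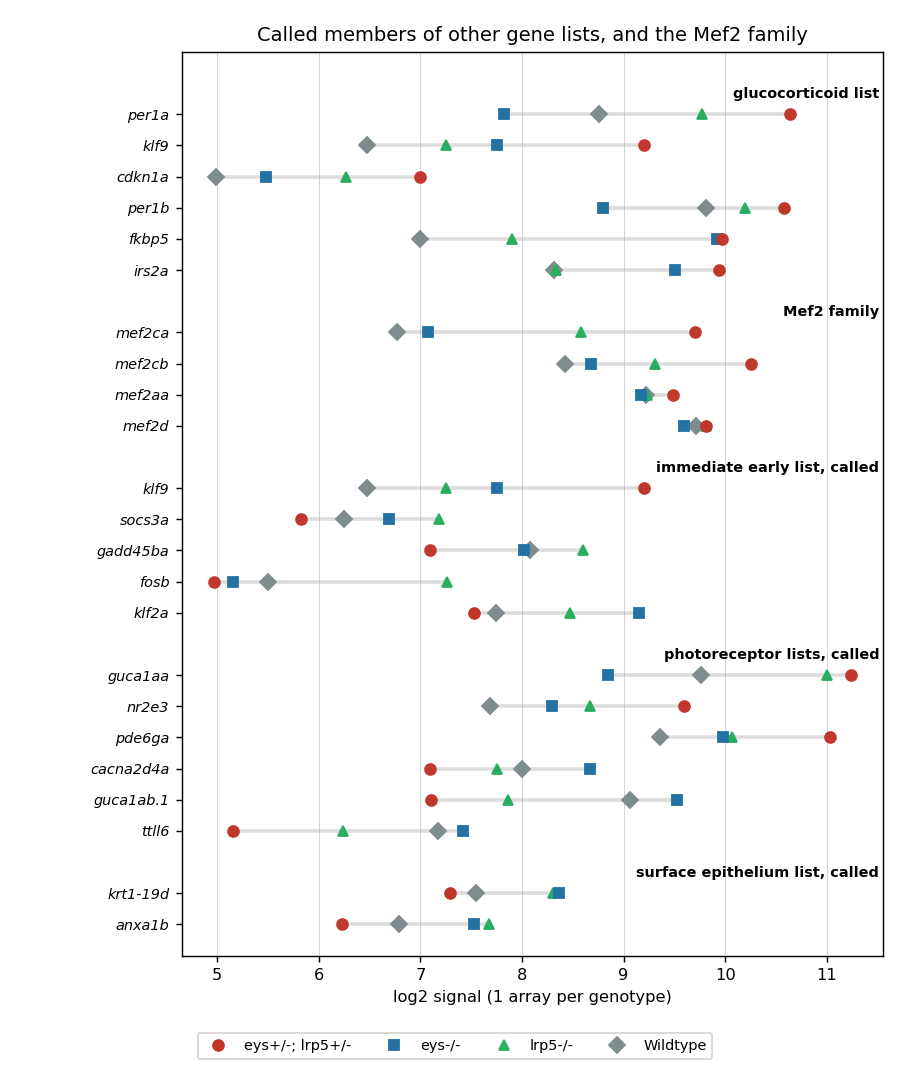
Log2 signals of called genes on the glucocorticoid, immediate early, photoreceptor and surface epithelium lists and of all 4 measured Mef2 genes, 1 row per gene and 1 marker per array; klf9 is on 2 lists. The red circle (eys+/-; lrp5+/-) overlaps the blue square (eys-/-) for fkbp5, and stands alone at the left or right end for klf9, mef2cb, pde6ga and ttll6.

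The 15 largest on the higher side, with 5 clone-style names skipped, ran from tubb4bl to hpxb, and 7 of them are list genes. The beta tubulin gene tubb4bl read 9.08 in the double heterozygote, 6.16 in eys-/-, 6.39 in lrp5-/- and 8.03 in Wildtype (2.80). A second probe set of tubb4bl read 4.90, against 1.17, 1.52 and 1.38, a difference of 3.55 at readings below the array medians. On that probe set Wildtype sided with the homozygotes, and tubulin genes are near-identical, so the level of this gene is uncertain. The vitamin B12 carrier gene tcnbb read 7.85 in the double heterozygote, 5.36 in eys-/-, 5.17 in lrp5-/- and 7.04 in Wildtype (2.59). For this gene both homozygotes were low and Wildtype stood with the double heterozygote.

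The chemokine ccl19a.2 read 7.02 in the double heterozygote, 4.24 in eys-/-, 4.74 in lrp5-/- and 5.21 in Wildtype (2.53). The MHC class II gene mhc2daa read 6.96, against 3.24 in eys-/-, 6.20 in lrp5-/- and 4.65 in Wildtype (2.23). Readings of both genes in the homozygotes or Wildtype were below the array medians, which leaves their sizes uncertain, and MHC genes vary between fish. Of 7 measured genes on the antigen presentation and lymphocyte list mhc2daa was the only one called, and the beta2 microglobulin genes b2m and b2ml differed by 0.07 and 0.12. Among 9 microglia and macrophage genes 0 were called. Over all measured genes the share called was 0.886%.

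The gene smu1b, of the spliceosome, read 9.11 in the double heterozygote, 6.12 in eys-/-, 8.09 in lrp5-/- and 6.77 in Wildtype (2.01). Its copy smu1a differed by 0.04. The mitochondrial myosin myo19 read 8.94, against 6.92, 7.33 and 7.11 in eys-/-, lrp5-/- and Wildtype (1.82). This is a case in which the other 3 arrays were close, 0.41 apart at most, and the double heterozygote alone was high. For insl3, an insulin-like peptide gene chosen after its values were seen, the levels were 6.70 against 5.32, 5.38 and 5.12 (1.35). The glutaminase gene gls2b read 6.67 against 5.40, 5.46 and 5.34 (1.24). For both genes only the double heterozygote reached the level of 6.57, and the other readings lay near the array medians. Closeness of the other arrays therefore says little for insl3 and gls2b, and the sizes are uncertain. Further members also reached that level in the double heterozygote only, of the 3 arrays of the rule. Among these were tubb4bl, tcnbb, ccl19a.2, mhc2daa, rtn2b, cdkn1a, cd36, ftr76, abcb5 and wfikkn2a. They were measured only through the array in which they are high. The reticulon rtn2b differed by 1.54, the neuron navigator nav2b by 1.44 and the haem-binding hemopexin gene hpxb by 1.42.

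On the lower side the 15 largest ran from ttll6 to cacna2d4a after 8 clone-style names were skipped, and 13 of them are list genes. The largest difference of all members was that of LOC100535405, named after its values were seen, at 3.47 in the double heterozygote, 6.67 in eys-/-, 6.97 in lrp5-/- and 4.44 in Wildtype (-3.35). Its double heterozygote and Wildtype readings were below the array medians. The stress-responsive ndrg1b, on the hypoxia list, read 8.83 in the double heterozygote, 10.53 in eys-/-, 9.95 in lrp5-/- and 11.58 in Wildtype (-1.41). It was lower than Wildtype in all 3 mutants, while its copy ndrg1a lay between 11.46 and 11.69. Of 26 hypoxia and angiogenic genes it alone was called, where 0.283% of all measured genes were lower. The leak potassium channel kcnk5a read 5.05 in the double heterozygote, 7.43 in eys-/-, 5.11 in lrp5-/- and 6.79 in Wildtype (-1.22). The double heterozygote and lrp5-/- were at the same level, so the call rests on eys-/-. Both of these readings were close to the array medians, and the size is uncertain. Of 30 potassium channel genes kcnk5a alone was called, beside the same 0.283% of all measured genes.

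The cohesin subunit smc1a read 5.53 in the double heterozygote, 6.97 in eys-/-, 6.49 in lrp5-/- and 7.03 in Wildtype (-1.20), and the calcium-binding s100w read 7.20, 8.32, 8.49 and 7.62 (-1.20). The heparan sulphate sulphotransferase hs3st3b1a read 7.83, against 9.29, 8.52 and 9.83 in eys-/-, lrp5-/- and Wildtype (-1.08), and its copy hs3st3b1b differed by 0.02. The microRNA gene mir726 and the osteocrin gene ostn, which were chosen after their values were seen, each differed by -1.10. For mir726 the levels were 6.98 in the double heterozygote, 8.57 in eys-/-, 7.59 in lrp5-/- and 8.60 in Wildtype, the order of the bmal1 genes, and for ostn they were 6.62, 7.73, 7.70 and 6.95.

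Of the remaining members, named after their values were seen, the higher ones with known roles included the lysosomal phospholipase pla2g15 (1.33), the kinase camkk1b of calcium signalling (1.28), the fatty acid receptor cd36 (1.01), the oestrogen-related receptor esrrgb (1.02), the nuclear receptor coactivator ncoa7a (1.18) and the ABC transporter abcb5 (1.05). FAT4, an atypical cadherin of planar polarity, differed by 1.12, and wfikkn2a, related to a mammalian antagonist of myostatin, by 1.02. Members given no role here were ubap1la, arhgap36, ftr76, fam110a, fbxo25, zfand5a, nim1kb and wbp1lb on the higher side and hhipl1 on the lower. A second probe set of fam110a differed by 0.99 in place of 1.35. Clone-style names made up 20 members, 11 higher and 9 lower.

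Symbols ending in a or b often mark duplicate copies in zebrafish, but not always: fam110a, myo3b, kera, cdkn1a, smc1a and fosb take the letter from the gene name itself. A total of 48 members end so, and for 31 of them the symbol with the other letter was measured. In 6 pairs both genes were called, in each case in the same direction: nr1d4a and nr1d4b, per1a and per1b, ciarta and ciartb, mef2ca and mef2cb, bmal1a and bmal1b, and cry3a and cry3b. The other 19 partners differed by -0.63 to 0.86, and 14 of them had the sign of the called gene. Such pairs can share probe sequence, which was not checked.

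Of the 36 gene lists 17 held a called gene and 19 held none, and 34 of the 36 medians were between -0.2 and 0.2. The 2 others were those of the glucocorticoid list and of the 4 Mef2 genes. Of all measured genes 0.886% were called, so 0 called in lists of these sizes is near that share and says little about them. Norrin and Wnt signalling, the pathway of lrp5, had 0 called of 19 with a median of -0.14, and 48 genes of this list were on the array. Endothelial genes had 0 of 25 (0.03) and pericyte and smooth muscle genes 0 of 13 (-0.11). Among retinal cells, Müller glia had 0 of 19 (0.12), with 17 genes above 0 and 2 below. Bipolar cells had 0 of 20 (-0.10), amacrine and horizontal cells 0 of 26 (0.01) and ganglion cells 0 of 16 (0.03). The visual cycle had 0 of 20 (-0.09), non-visual opsins 0 of 13 (0.03), melatonin genes 0 of 8 (-0.11), pigment cells 0 of 26 (0.06) and the lens 0 of 49 (-0.02). The pteridine gene gch2, at 0.99, and the opsin opn3, at -0.99, lay just outside the threshold.

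Housekeeping pathways had medians near 0, and the counts here stand beside 0.886% of all measured genes called. Ribosomal proteins had 0 called of 59 (median 0.03), oxidative phosphorylation 0 of 72 (-0.05), glycolysis and glycogen 0 of 53 (0.04) and sterol and fatty acid synthesis 0 of 34 (-0.02). Microglia and macrophages had a median of 0.11, myelin 0 of 8 (0.05) and red blood cells 0 of 13 (0.05). Of 34 chaperones only fkbp5 was called, the median was -0.11 and dnajb11 came to -0.97. The cell cycle list had 1 higher and 1 lower of 20, cdkn1a and gadd45ba.

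At the threshold the last genes inside were wbp1lb, cd36 and pde6ga on the higher side, at 1.004 to 1.01, and zgc:112998, krt1-19d and cry3b on the lower side, at -1.03 to -1.04. Just outside were zbtb16a, gch2 and si:dkey-19a16.2, at 0.99 to 0.98, and foxq1a, opn3 and dnajb11, at -0.996 to -0.97. For 13 members at least 1 of the 3 readings was below the median of its array, 6 higher and 7 lower, and the sizes of those differences are uncertain. Among the 50 measured genes nearest to eys in RefSeq gene order 0 were members, and among the 50 nearest to lrp5 there were 2, ubap1la and pla2g15. Of all measured genes 0.886% were members, and a link of these counts to gene position was not tested. The levels of ubap1la were 8.70 in the double heterozygote, 6.80 in eys-/-, 7.79 in lrp5-/- and 7.57 in Wildtype, and those of pla2g15 were 8.83, 7.34, 7.67 and 7.38.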

How the data were processed

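RNA of whole eyes was hybridised to Affymetrix arrays, 1 for each genotype. The authors deposited log2 signals for 75212 probe sets. The submitters' processing notes list RMA and Transcriptome Analysis Console 4.0. By its definition RMA equalises the arrays' distributions, which would take away a shift shared by most genes. That the scale is log2 follows from the range and the medians of the columns. A genome build for the probe annotation was not given in the sources used here.

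Annotation dated 2013 attached a single gene symbol to 20806 probe sets. Another 855 had several symbols and 53551 had none, and neither kind was used for genes. Symbols were matched to the RefSeq gene table of assembly GRCz12tu, in which 20323 named probe sets had an entry. This step changed the symbol of 1 probe set. Where several probe sets shared a symbol, the brightest on average was kept, leaving 19260 genes. Differences, counts and medians were computed in Python 3.11.15 with pandas 2.3.3. The calling rule was run on simulated arrays with planted differences, which checks the computation and says nothing on calls from single real arrays. No test was run, since each genotype has 1 array.

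The members and the 36 gene lists were chosen with earlier results of these data known. The rule for named genes took the 15 with the largest difference in each direction apart from clone-style names, called genes of the lists with up to 3 uncalled ones per list, measured genes of the clock, immediate early and glucocorticoid lists, and genes next to the threshold. Other names, copies of called genes included, were chosen after their values were seen. A total of 13 alternatives was tried. No sequences of the members were used here.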

Additional observations from a re-analysis of the deposited data

How the results depend on the processing

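No paired analysis was possible because each genotype has 1 array. All values compare single arrays, and the count of members depends on the level rule, the threshold and the array used for comparison. With the level asked of the lowest of the 3 arrays, 38 genes were higher and 16 lower, and 54 of the members remained, all 54 outside the range of the other arrays. A level at the upper quartile left 16 lower genes. At 1.5-fold 254 genes were higher and 153 lower, with 392 outside the range, and at 3-fold 15 and 7, with 21 outside it and 22 members remaining. Against eys-/- alone 155 genes were higher and 73 lower (196 outside), against lrp5-/- alone 34 were higher (47 outside, with 37 members remaining), and against Wildtype alone 128 were higher and 52 lower (168 outside). LOC100006764 turned to 0.33 against eys-/- alone. Another choice of probe set, centring, no level filter or the mean of the other 3 arrays moved none of the counts by over 1.5 times, nor did removal of a trend with level, after which 83 of the 94 members remained. The number of gene lists with a median above 0, 23 of 36, ran from 17 to 24. Single list medians moved by over 0.17, the robust SD over all measured genes, in 6 cases: against eys-/- alone that of the clock list came to 0.26, microglia to 0.35, myelin to 0.24 and the 2 gadd45 genes to 0.48, and the gadd45 median was -0.86 against lrp5-/- alone and 0.09 against the average of every other array.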

Other observations

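Probe sets without a gene name were not used above. Of 53551 such probe sets 11568 reached the level rule, and 152 were higher and 132 lower in the double heterozygote than the mean of both homozygotes by 2-fold or more, 2.46% of them. Of the 337 probe sets with several gene symbols at that level, 1 was higher and 14 were lower (4.45%).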
